A study of Homo sapiens with 6 samples.

Results

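Aminoacyl-tRNA synthetases are the enzymes that join each amino acid to its transfer RNA (tRNA), and their transcripts were followed here in human melanoma cells with and without a plasma-activated solution. The members are the 36 genes of the deposited expression table named as cytosolic or mitochondrial synthetases, 36 of 58735 genes in all. They were taken by name, and the rule uses no measured value, though earlier results of these data were known when it was written. The 20 cytosolic genes include GARS and KARS, whose products serve both compartments, and the other 16 genes, with names ending in 2, encode mitochondrial enzymes.

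RNA enriched for poly-A was sequenced from A375, an established human malignant melanoma line. The 6 libraries were 3 of cells given PAL, which is Ringer's lactate made reactive by a low-temperature plasma, and 3 of control cells without it. Both groups carry the same line, and the labels name no other allele or agent. The dose of PAL, the exposure time and the culture of the cells are not stated in the labels, and the PAL columns carry the number 64, whose meaning is not stated either. Nor do they say that replicates came from separate cultures, so p-values measure only how far these libraries vary, which may be technical. Values are FPKM, reads divided by gene length and library size. Levels of different genes depend on the listed lengths, such as 10037 bases for CARS and 3369 for FARSB, so comparisons between genes are approximate. Libraries held 15064971 to 17711389 assigned reads. Of 10 melanocyte and melanoma markers, 6 averaged at least 1 FPKM, with SOX10 at 108 ± 0.944 FPKM in PAL and 88.1 ± 1.68 FPKM in control (SD, n = 3 each), while the pigment genes MLANA, TYR and DCT were at or near 0. The summed level of the 10 markers was 214 to 220 FPKM in PAL libraries and 188 to 195 FPKM in control libraries.

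A synthetase recognises 1 amino acid and the tRNAs that read its codons, and the enzymes fall into class I and class II by the fold of their catalytic core. Several cytosolic enzymes sit in the multisynthetase complex on the scaffold proteins AIMP1, AIMP2 and EEF1E1, while the mitochondrial enzymes are encoded in the nucleus and imported. Uncharged tRNA activates the kinase GCN2, encoded by EIF2AK4, which raises translation of the transcription factor ATF4, and many cytosolic synthetase genes are known targets of ATF4.

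All 36 members passed the filter of at least 1 FPKM in at least 3 libraries and were tested with limma among 12258 genes. The cytosolic transcripts were the more abundant: their median level over the 6 libraries was 42.1 FPKM, against 8.75 FPKM for the mitochondrial enzymes and 6.18 FPKM for all tested genes. Cytosolic levels ran between 9.51 FPKM for CARS, the cysteine enzyme, and 171 FPKM for FARSA, the catalytic subunit of the phenylalanine enzyme. FARSB, which encodes the other subunit of that enzyme, stood at 25.3 FPKM. Mitochondrial levels ran between 1.95 FPKM for SARS2, the serine enzyme, and 67.2 FPKM for IARS2, the isoleucine enzyme. IARS2 ranked 7 of 36 and was the only mitochondrial member above the cytosolic median. Its cytosolic counterpart IARS was lower per length, at 43.9 FPKM. IARS held more reads, 5112 to 5826 per library over 7401 listed bases, against 4330 to 4944 over 4165 for IARS2. The other cytosolic enzymes exceeded the mitochondrial enzyme of the same amino acid in mean FPKM over the 6 libraries.

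Replicates lay close together for most members. The coefficient of variation of the cytosolic enzymes had a median of 2.25% among PAL libraries and 1.64% among control libraries, with 5.39% for CARS in PAL and 5.34% for LARS in control as the highest values. The mitochondrial enzymes, with fewer reads, had medians of 4.94% in PAL and 3.05% in control. Their highest values were 16.5% for PARS2 in PAL and 21.5% for MARS2 in control.

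**Figure D1:**
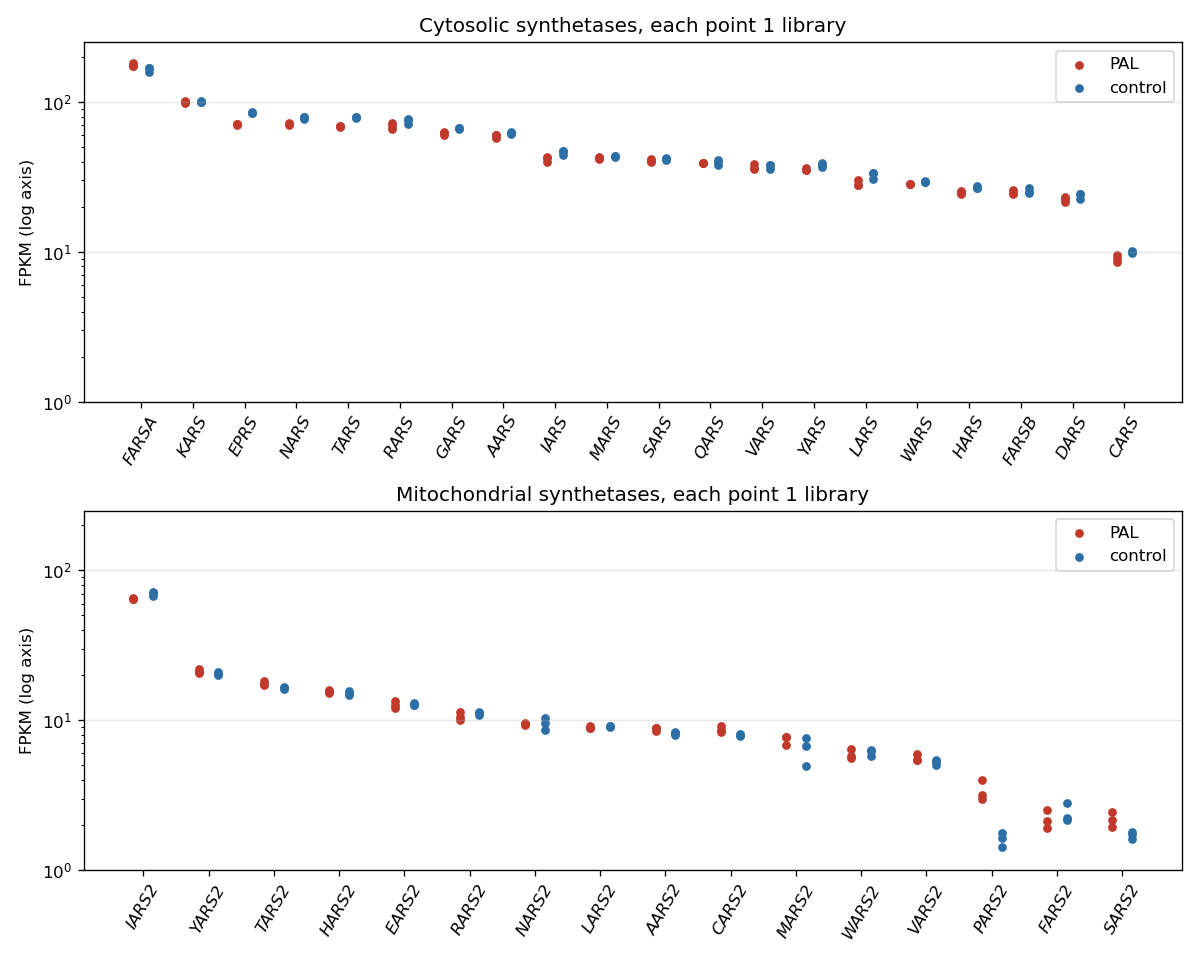
FPKM of each synthetase in each library on a log axis, with cytosolic enzymes in the upper panel and mitochondrial enzymes in the lower, PAL points left of control points, ordered by mean level. FARSA is highest at 171 FPKM on average and SARS2 lowest at 1.95 FPKM, and PARS2 shows the widest gap between the groups.

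PAL libraries were compared with control libraries to find the synthetase transcripts that differ with the treatment. Among the 20 cytosolic synthetases, 6 fell and 0 rose at an adjusted p below 0.05 (limma on log2(FPKM + 1), two-sided, Benjamini-Hochberg over all tested genes). The shares among all tested genes were 14.5% lower and 11.4% higher, 25.9% in either direction. Without PAL replicate 2 or control replicate 1 the count of falls was 3. Of all tested genes 1170 and 1303 fell in these 2 fits, against 1780 with all libraries. The 6 were EPRS, TARS, NARS, GARS, IARS and LARS, and their mean FPKM fell by 7.79% in GARS and by up to 16.2% in EPRS. The log2 changes of 19 of the 20 cytosolic genes were below 0, with a median of -0.09, against 0.00 over all tested genes. The authors' library sizes bear on this: under TPM scaling 2 cytosolic genes fell and 1 rose (9.51% of all tested genes lower, 22.1% higher), and the cytosolic median was -0.02 against 0.06 over all tested genes, so that it lay 0.08 below the median of all genes instead of 0.09. Scaling by plain read totals (9.22% of all tested genes lower, 25.3% higher) and quantile normalization (11.6% lower, 16.9% higher) also gave 2 falls and 1 rise, and voom on recovered reads, with the authors' library sizes, gave 10 falls and 1 rise (18.1% lower, 13.7% higher). In bulk RNA, fewer cells carrying a transcript and less of it per cell cannot be told apart.

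EPRS had the largest cytosolic difference. Its product joins both glutamate and proline to their tRNAs in a single fused protein of the multisynthetase complex, and the gene lies at chr1:219968601-220046658 on the minus strand of hg38. Its levels were 70.4, 71.8 and 71.5 FPKM in PAL, against 84.2, 85.9 and 84.9 FPKM in control. Every PAL library was below every control library, by more than the range within either group. EPRS fell by 0.25 on the log2 scale (SE 0.0224, adjusted p = 5.19e-04), 16.2% in mean FPKM, and it passed in all 17 alternative settings, TPM included. TARS, the threonine enzyme at chr5:33440696-33469539 on the plus strand, had 68.5, 68.8 and 69.4 FPKM in PAL, against 78.3, 79.6 and 79.9 FPKM in control. The groups again did not overlap. TARS fell by 0.20 (SE 0.0221, adjusted p = 0.00136) and likewise passed in all 17 alternatives.

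NARS, the asparagine enzyme at chr18:57600656-57622213, had 70.1, 70.9 and 72.3 FPKM in PAL, against 79.9, 79.3 and 77.3 FPKM in control. The groups did not overlap, and the log2 change was -0.15 (SE 0.0252, adjusted p = 0.00739). It passed whichever single library was left out, but not under TPM, plain totals or quantile scaling, where the adjusted p was 0.0802, 0.0964 and 0.0688. GARS, the glycine enzyme of both compartments, had 62.3, 60.4 and 62.7 FPKM in PAL, against 67.5, 66.2 and 67.3 FPKM in control. Its log2 change was -0.12 (SE 0.0254, adjusted p = 0.0179). The groups did not overlap, and the call was lost without PAL replicate 2 (adjusted p = 0.0595) or control replicate 1 (0.057), without both libraries numbered 3 (0.0521), with no variance trend (0.0575) and under TPM (0.279), plain totals (0.386) and quantile scaling (0.171). GARS passed in 10 of 17 alternatives.

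IARS and LARS, the isoleucine and leucine enzymes of the multisynthetase complex, passed less firmly. IARS had 39.6, 42.4 and 42.7 FPKM in PAL, against 47.3, 46.8 and 44.6 FPKM in control, a log2 change of -0.15 (SE 0.0396, adjusted p = 0.0317). LARS had 27.9, 28 and 30.4 FPKM in PAL, against 33.5, 33.6 and 30.5 FPKM in control, a log2 change of -0.17 (SE 0.0505, adjusted p = 0.0442). The groups did not overlap for either gene, but PAL replicate 3 and control replicate 3 of LARS differed by little. Both calls were lost without PAL replicate 1 or 2, or without control replicate 1 or 2, with adjusted p of 0.0637 to 0.0905 for IARS and 0.118 to 0.131 for LARS, and under TPM scaling (0.171 and 0.187). Without both libraries numbered 3 the changes were -0.20 for IARS and -0.26 for LARS. RARS, the arginine enzyme of the same complex, had 66.0, 69.0 and 72.7 FPKM in PAL, against 77.0, 76.3 and 71.6 FPKM in control. Its groups overlapped through the replicates numbered 3, and its log2 change of -0.11 (adjusted p = 0.102) became -0.18 (adjusted p = 0.0236) without them. In IARS, LARS and RARS these replicates held the highest PAL and the lowest control value. Leaving both out therefore had to enlarge the changes, and the larger values are no added support.

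**Figure D2:**
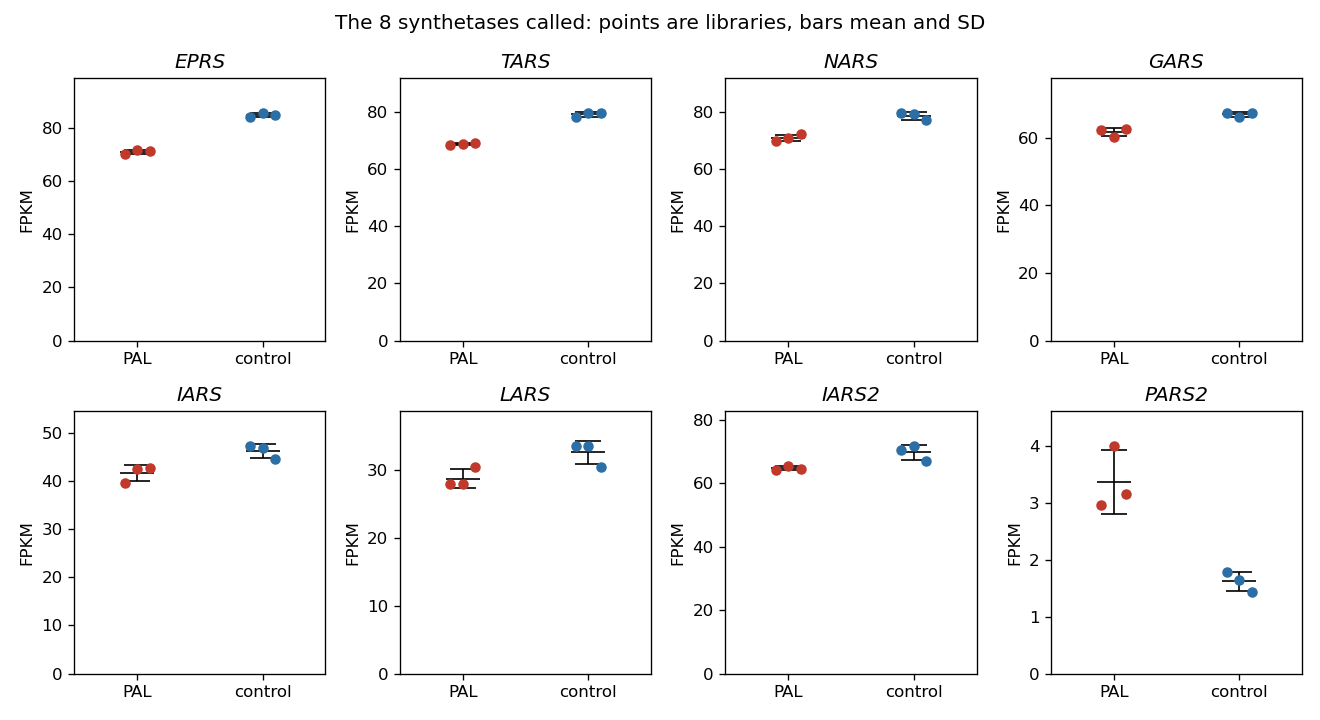
FPKM of the 8 synthetases past the threshold, 1 panel each with its own axis from 0, PAL left and control right, points for libraries and bars for the mean and SD of 3. In 7 panels all PAL points lie below all control points, and in the PARS2 panel they lie above.

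The other cytosolic enzymes did not pass. CARS, for cysteine, had 9.49, 8.91 and 8.53 FPKM in PAL, against 9.90, 10 and 10.2 FPKM in control. These groups did not overlap, and the adjusted p of 0.0518 for a log2 change of -0.15 was close to the threshold. HARS, for histidine, stood at -0.10 (adjusted p = 0.0525) and YARS, for tyrosine, at -0.09 (adjusted p = 0.0774). FARSA was the only cytosolic member with a change above 0: it had 174, 182 and 174 FPKM in PAL, against 168, 159 and 169 FPKM in control, a log2 change of 0.09 (adjusted p = 0.0787). Its groups did not overlap, and under TPM scaling the change was 0.16 (adjusted p = 0.00748). FARSB, the partner subunit, averaged 25.1 ± 0.89 FPKM in PAL and 25.6 ± 1.16 FPKM in control (SD, n = 3 each), with overlapping groups. Across the whole cytosolic list, PAL was below control in every library for 12 genes and above it for 1, where such separation was seen for 23.6% and 21.4% of all tested genes (44.9% in either direction).

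Smallest among the cytosolic differences were those of KARS and QARS. KARS, the lysine enzyme of both compartments, averaged 100 ± 1.02 FPKM in PAL and 101 ± 1.48 FPKM in control, and QARS, the glutamine enzyme, 39.4 ± 0.142 and 39.7 ± 1.63 FPKM in PAL and control. Their 95% intervals for the log2 change were -0.07 to 0.04 and -0.09 to 0.07. VARS, for valine, had an interval of -0.10 to 0.07, MARS, for methionine, -0.09 to 0.03, and SARS, for serine, -0.10 to 0.03. The remaining changes were -0.08 for DARS (aspartate), -0.06 for AARS (alanine) and -0.06 for WARS (tryptophan). Point estimates of KARS, QARS, VARS, MARS, SARS, AARS, WARS and FARSB were above 0 under TPM scaling.

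The cytosolic genes were also grouped by their place in the complex and by structural class. Of the 8 enzymes of the multisynthetase complex 3 fell, with a median change of -0.10, and of the 12 other cytosolic genes 3 fell, with a median of -0.08 (14.5% of all tested genes fell). Under TPM scaling 1 gene of each group fell (9.51% of all tested genes fell). The count in the complex was 1 without PAL replicate 1 or 2 or control replicate 1 or 2. For the other genes it was 2 without PAL replicate 2 or control replicate 1, and 4 without PAL replicate 1. With single libraries left out, 1170 to 1506 of all tested genes fell, against 1780 with all libraries. Of 9 class I enzymes 2 fell, with a median of -0.09, and of 10 class II enzymes 3 fell, with a median of -0.07; EPRS, which holds a domain of each class, is in neither count. Under TPM scaling 0 class I and 1 class II enzymes fell, where 9.51% of all tested genes did. The class I count was 1 without PAL replicate 1 and 0 without PAL replicate 2, control replicate 1 or control replicate 2, and the class II count was 2 or 3 without any single library. The scaffold gene AIMP1 averaged 22.3 ± 0.955 FPKM in PAL and 23.1 ± 1.39 FPKM in control. AIMP2 averaged 44.5 ± 0.847 FPKM in PAL and 41.5 ± 1.63 FPKM in control, a log2 change of 0.10 (adjusted p = 0.0782), and EEF1E1 also stood at 0.10 (adjusted p = 0.172). None of the 3 scaffold genes passed, although AIMP2 did under TPM scaling (0.17, adjusted p = 0.0129) and without control replicate 2 (0.13, adjusted p = 0.0379).

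**Figure D3:**
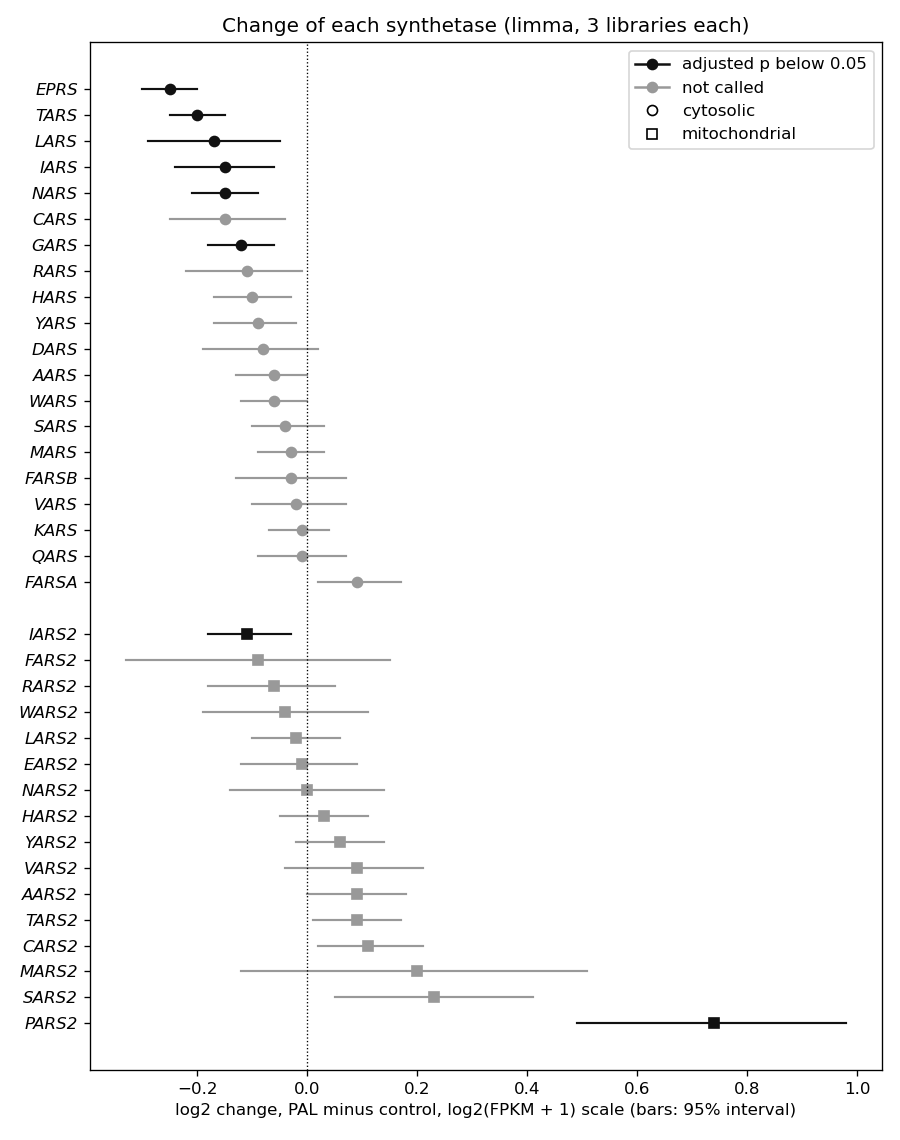
Log2 change of each synthetase, PAL minus control on the log2(FPKM + 1) scale, with 95% intervals from limma, cytosolic enzymes above (circles) and mitochondrial below (squares), black where the adjusted p was below 0.05. Cytosolic estimates run between -0.25 for EPRS and 0.09 for FARSA, and PARS2 stands apart at 0.74.

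Start regions of the cytosolic genes were read for the letters of the C/EBP-ATF composite element, the binding site through which ATF4 is known to act, because several synthetase genes carry it. The RefSeq table of GRCh38.p14 gives 250 bases before to 50 after each start, and 30 of the 36 members matched it, 16 cytosolic and 14 mitochondrial. The letters TGATGNAA, on either strand, were found in the windows of 7 cytosolic genes (AARS, CARS, GARS, IARS, MARS, NARS and TARS) and 1 mitochondrial gene (YARS2), and in 3.62% of all 35116 windows. The 30 members had 39 windows, and a gene was counted if any of its windows matched. The shares are of windows, so the 2 are not on the same footing. The stricter form TGATGCAA was found in 6 cytosolic genes, 0 mitochondrial genes and 0.866% of all windows. Shown are 60 bases around the match in each of the 7 genes, read 5′ to 3′ on the strand of the gene, with the match in capitals, at chr5:33440941-33441000 (plus strand), chr9:92293677-92293736 (minus), chr11:3057392-3057451 (minus), chr12:57488038-57488097 (plus), chr16:70289660-70289719 (minus), chr18:57621789-57621848 (minus) and chr7:30594819-30594878 (plus).
TARS: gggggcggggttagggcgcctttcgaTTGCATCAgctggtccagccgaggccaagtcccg
IARS: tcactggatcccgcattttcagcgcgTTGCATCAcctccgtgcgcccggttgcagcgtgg
CARS: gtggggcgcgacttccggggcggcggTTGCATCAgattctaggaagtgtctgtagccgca
MARS: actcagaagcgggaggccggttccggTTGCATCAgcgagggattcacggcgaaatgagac
AARS: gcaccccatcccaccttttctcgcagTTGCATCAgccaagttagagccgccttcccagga
NARS: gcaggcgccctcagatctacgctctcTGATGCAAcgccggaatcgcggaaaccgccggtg
GARS: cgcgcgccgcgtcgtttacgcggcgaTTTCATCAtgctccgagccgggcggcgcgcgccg
The match began within 15 bases of the RefSeq start in TARS, IARS, CARS, MARS and NARS, at 33 bases before it in GARS and at 187 bases before it in AARS. The strict form has no free letter, so its 6 matches are the same 8 bases by definition. They have the opposite orientation to the gene in NARS from that in the other genes.

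EPRS, which fell most, had no match to TGATGNAA in its window. The last 60 bases of that window (chr1:220046456-220046515, minus strand) are shown because they hold TTGCATC, in capitals, the strict element less 1 letter. This shorter run was looked for after the sequence had been read. Its share among all windows and the other members was not counted.
EPRS: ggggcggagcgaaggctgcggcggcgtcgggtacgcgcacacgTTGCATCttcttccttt
Of the 7 cytosolic genes with TGATGNAA 4 fell, with a median change of -0.15 and a range of -0.20 to -0.03. Of the 9 genes with a window and no match 1 fell, with a median of -0.04 and a range of -0.25 to 0.09. The 4 genes without a window in the table (DARS, LARS, VARS and YARS) had a median of -0.09, and 1 of them fell. Among all tested genes 14.5% fell. Under TPM, plain totals and quantile scaling the falls were 1 of the 7 genes with the letters (TARS) and 1 of the 9 without (EPRS), and FARSA, among the 9, rose. Of all tested genes 9.51%, 9.22% and 11.6% fell under these scalings. These groups by letters are descriptions of few genes and were not tested, and a match is letters in a window and no evidence of binding. The longer composite form TGATGNAAT was in GARS and TARS and 0.991% of all windows. The full CRE letters TGACGTCA were in 0 member windows and 1.85% of all windows. The shorter CRE letters TGACGT were in CARS, CARS2, NARS2 and WARS2 and 7.98% of all windows. The E-box letters CACGTG were in IARS, CARS2, EARS2 and MARS2 and 7.26% of all windows, and the heat shock element in 0 member windows and 0.478% of all windows. In the shorter window from 150 bases before the start, TGATGNAA was in 6 cytosolic genes and 2.39% of all windows.

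Among the 16 mitochondrial synthetases, 1 rose and 1 fell, where 11.4% of all tested genes rose and 14.5% fell. The median log2 change was 0.05, against 0.00 over all tested genes. PAL was above control in every library for 6 genes and below it for 1, against 21.4% and 23.6% of all tested genes. Under TPM scaling 6 rose and 0 fell (22.1% of all tested genes higher). Under plain read totals 8 rose and 0 fell (25.3% higher). Under quantile normalization 4 rose and 0 fell (16.9% higher). The mitochondrial median was 0.11 under TPM, 0.05 above that of all tested genes, where it had been 0.04 above in the deposited scaling.

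PARS2, which charges the mitochondrial proline tRNA, rose more than any other member. The gene lies at chr1:54756898-54764514 on the minus strand of hg38. Its levels were 2.96, 4.01 and 3.15 FPKM in PAL, against 1.78, 1.64 and 1.43 FPKM in control. The lowest PAL library was well above the highest control library. The means were 3.37 ± 0.557 FPKM in PAL and 1.62 ± 0.174 FPKM in control (SD, n = 3 each), a ratio of 2.09. On the log2(FPKM + 1) scale, which understates low genes, the change was 0.74 (95% interval 0.49 to 0.98, adjusted p = 0.0034), and on recovered reads (voom) it was 1.04. These values rest on 128, 157 and 136 reads in PAL and 66, 57 and 52 reads in control. PARS2 rose in all 16 alternatives that tested it, with an adjusted p of 2.71e-04 to 0.0218; it was below the filter of a mean of 5 FPKM.

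The start region of PARS2 is shown whole (chr1:54764474-54764773, minus strand, RefSeq GRCh38.p14) because PARS2 was the only synthetase to rise in the limma test of the deposited values (voom on recovered reads also called CARS2 and FARSA higher). The capitals mark the palindrome TTCCGGAA, picked after the sequence had been read, which occurs at 2 places, 215 and 133 bases before the start.
PARS2: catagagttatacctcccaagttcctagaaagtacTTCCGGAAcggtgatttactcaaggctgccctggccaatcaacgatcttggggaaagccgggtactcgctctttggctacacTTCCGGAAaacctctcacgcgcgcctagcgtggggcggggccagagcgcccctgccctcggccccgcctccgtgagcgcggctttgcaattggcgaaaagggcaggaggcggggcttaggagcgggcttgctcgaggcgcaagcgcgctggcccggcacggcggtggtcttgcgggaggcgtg
That palindrome was in the window of 1 of the 30 matched members, PARS2 itself, and in 0.689% of all windows, and 0.0427% of all windows held at least 2 copies. Because it was picked from the PARS2 window, its presence there was fixed beforehand, and these shares are no test.

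IARS2, for isoleucine, was the mitochondrial member that fell. It had 64.1, 65.3 and 64.4 FPKM in PAL, against 70.3, 71.8 and 67.1 FPKM in control. The groups did not overlap, and the log2 change was -0.11 (SE 0.0306, adjusted p = 0.0414). This call was lost without any 1 of the libraries except control replicate 3, with adjusted p of 0.0867 to 0.119, and under TPM scaling the change was -0.04.

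SARS2, for serine, had 2.17, 1.95 and 2.45 FPKM in PAL, against 1.62, 1.73 and 1.80 FPKM in control. The groups did not overlap, and the log2 change of 0.23 (adjusted p = 0.069) passed only under TPM (0.28, adjusted p = 0.037) and plain totals (0.29, adjusted p = 0.0281). CARS2 (cysteine, 0.11), TARS2 (threonine, 0.09), AARS2 (alanine, 0.09) and VARS2 (valine, 0.09) also had every PAL library above every control library, with adjusted p of 0.0823 to 0.261. Under TPM scaling CARS2, TARS2 and AARS2 rose, with adjusted p of 0.0147, 0.0165 and 0.0217. MARS2, for methionine, had 7.74, 7.72 and 6.87 FPKM in PAL, against 4.92, 6.75 and 7.63 FPKM in control. Its groups overlapped and control replicate 1 was low, so that the change of 0.20 (adjusted p = 0.308) became 0.04 without that library.

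YARS2 (tyrosine, 0.06), HARS2 (histidine, 0.03), NARS2 (asparagine, -0.00), EARS2 (glutamate, -0.01), LARS2 (leucine, -0.02), WARS2 (tryptophan, -0.04), RARS2 (arginine, -0.06) and FARS2 (phenylalanine, -0.09) had overlapping groups, and their adjusted p ran between 0.234 and 0.99. Their depth sets how small a change could be seen: FARS2, with 154 to 222 reads per library, had a 95% interval of -0.33 to 0.15, while HARS2, with 821 to 1091 reads, had one of -0.05 to 0.11. YARS2 rose under TPM (0.13, adjusted p = 0.0222), plain totals (0.14, adjusted p = 0.0173) and quantile scaling (0.11, adjusted p = 0.0436). HARS2 rose under plain totals alone (0.11, adjusted p = 0.0416).

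Summed over the cytosolic list, expression was 1042, 1060 and 1059 FPKM in PAL, against 1119, 1103 and 1104 FPKM in control. Every PAL sum was below every control sum. As a share of all assigned reads, which does not use the authors' library size, the same list took 0.522% ± 0.00265 in PAL and 0.525% ± 0.00456 in control (SD, n = 3 each), and these ranges overlapped. The mitochondrial list summed to 205 ± 2.09 FPKM in PAL and 204 ± 2.14 FPKM in control, with overlap. Its share of assigned reads was 0.0921% ± 0.000388 in PAL and 0.0864% ± 0.000986 in control, without overlap.

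**Figure D4:**
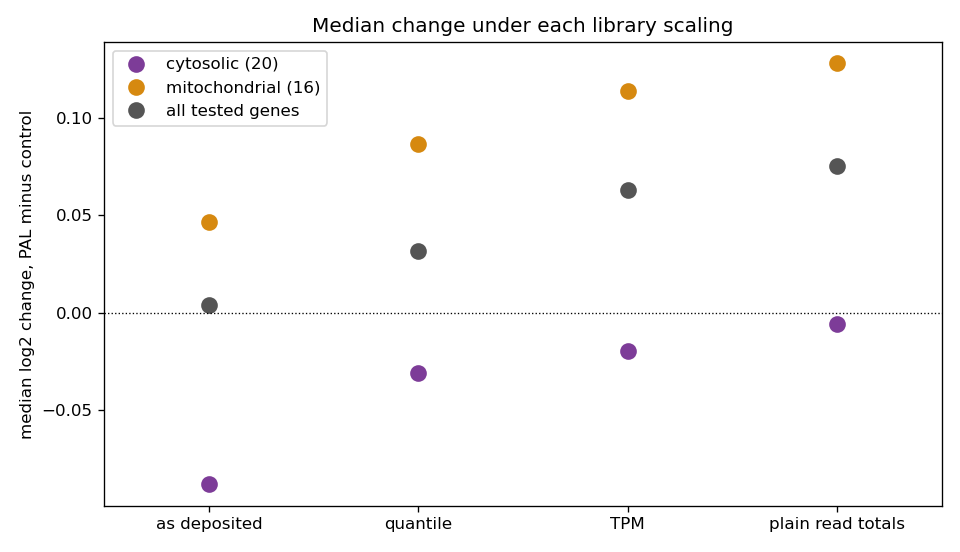
Median log2 change, PAL minus control, of the 20 cytosolic synthetases, the 16 mitochondrial synthetases and all tested genes under the deposited scaling, quantile normalization, TPM and plain read totals. All 3 medians move up together to the right, and the cytosolic one stays below and the mitochondrial one above that of all genes under each of these 4.

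A ratio between the cytosolic and the mitochondrial enzyme of the same amino acid is little affected by library scaling, so it was computed in each library for 17 pairs as the log2 ratio of FPKM + 1. The ratio was lower in PAL for 15 pairs, with a median difference of -0.15. In 10 pairs every PAL library was below every control library, in 0 pairs every PAL library was above, and 7 pairs overlapped. Of single tested genes 44.9% separated the groups in either direction, and the share for ratios of other genes was not computed. The pairs are not independent, since EPRS and FARS2 each recur. With 3 libraries against 3, the exact two-sided permutation test cannot go below p = 0.1, which these 10 pairs reached, and p was 0.17 after adjustment over the 17 pairs. The count of 10 was the same under TPM and plain read totals. These scalings nearly cancel in a ratio within a library, so this is no test of the count.

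The widest difference was between the proline enzymes. The log2 ratio of EPRS to PARS2 was 4.17, 3.86 and 4.13 in PAL, against 4.94, 5.04 and 5.14 in control, a difference of -0.99 (SE 0.11). The threonine pair, TARS to TARS2, had little spread within the groups: 1.92, 1.93 and 1.87 in PAL, against 2.20, 2.19 and 2.20 in control, a difference of -0.29 (SE 0.02). Neither pair overlapped between the groups. SARS to SARS2 and CARS to CARS2 both differed by -0.26 (SE 0.09 and 0.05), EPRS to EARS2 by -0.24 (SE 0.04), YARS to YARS2 by -0.16 (SE 0.02), AARS to AARS2 by -0.15 (SE 0.04), NARS to NARS2 by -0.15 (SE 0.05), HARS to HARS2 by -0.13 (SE 0.03) and VARS to VARS2 by -0.10 (SE 0.02). Both genes of the isoleucine pair fell, and the IARS to IARS2 ratio averaged -0.63 in PAL and -0.58 in control, with overlap. LARS to LARS2 (-0.15), MARS to MARS2 (-0.23), RARS to RARS2 (-0.05) and WARS to WARS2 (-0.02) overlapped, as did both phenylalanine pairs, FARSA to FARS2 (0.19) and FARSB to FARS2 (0.07).

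HARS and HARS2 are divergent neighbours on chromosome 5, and their annotated gene bodies overlap by 437 bases. Their RefSeq starts lie 85 bases apart on opposite strands, and the whole HARS window (chr5:140691321-140691620, minus strand) is shown because a single start region serves both enzymes of histidine. The capitals mark the 84 bases between the 2 starts.
HARS: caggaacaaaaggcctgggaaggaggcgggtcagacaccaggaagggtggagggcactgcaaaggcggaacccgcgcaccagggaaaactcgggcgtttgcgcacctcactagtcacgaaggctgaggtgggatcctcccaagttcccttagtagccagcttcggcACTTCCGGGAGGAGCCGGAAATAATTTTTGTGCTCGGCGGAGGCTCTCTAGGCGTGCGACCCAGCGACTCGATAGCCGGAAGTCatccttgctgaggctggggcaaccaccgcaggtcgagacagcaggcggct
HARS had 25.5, 25.3 and 24.5 FPKM in PAL, against 27.4, 26.6 and 26.7 FPKM in control. HARS2 had 15.3, 15.7 and 15.9 FPKM in PAL, against 15.7, 14.8 and 15.2 FPKM in control. The groups did not overlap for HARS and overlapped for HARS2, and neither passed.

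The labels do not say whether counting used strand, and 16 of the 36 members overlap a gene of the opposite strand with a mean above 0.3 FPKM. Reads of these partners cannot be told apart without strand, and their part in the changes was not tested. MARS overlaps DDIT3, the stress transcription factor CHOP, by 982 bases; DDIT3 fell by 1.20 on the log2 scale while MARS stood at -0.03. CARS2 overlaps ING1 by 868 bases, and ING1 fell by 0.99 (adjusted p = 1.44e-05) where CARS2 stood at 0.11. KARS overlaps TERF2IP by 858 bases, which fell by 0.27 (adjusted p = 0.00127). SARS2 shares 349 bases with MRPS12, a mitochondrial ribosomal protein gene at 32.2 ± 0.565 FPKM in PAL and 27.0 ± 1.35 FPKM in control, which rose by 0.25 (adjusted p = 0.00581) and is far more abundant than SARS2. WARS2 overlaps AL359915.2, which rose by 0.30 (adjusted p = 0.0331). EARS2 overlaps UBFD1 (-0.15, adjusted p = 0.0113) and YARS2 overlaps DNM1L (-0.21, adjusted p = 0.0152), and both of these partners fell. FARSA overlaps its antisense gene FARSA-AS1, at 26 ± 4.04 FPKM in PAL and 22.5 ± 2.81 FPKM in control. No partner above 0.3 FPKM overlapped EPRS, TARS, NARS, IARS2 or PARS2.

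Downstream of charging, elongation factors carry the charged tRNA to the ribosome. Of 7 cytosolic elongation genes 6 were tested, 1 rose and 2 fell, while EEF1G was listed at 0 in all libraries (11.4% of all tested genes rose and 14.5% fell). EEF2, which moves the ribosome along, averaged 611 ± 2.73 FPKM in PAL and 664 ± 12.8 FPKM in control (-0.12, adjusted p = 0.0094). EEF1A2, a tRNA carrier, fell by 0.19 (adjusted p = 0.0387) and EEF1D, an exchange factor, rose by 0.10 (adjusted p = 0.0323). The EEF1D call was lost without any 1 of the 6 libraries (adjusted p = 0.0501 to 0.0976), and that of EEF1A2 without any 1 except control replicate 1 (0.0693 to 0.121). Under TPM scaling neither fall passed and 2 of the 6 rose (22.1% of all tested genes). Of 8 mitochondrial genes of this step 0 rose and 2 fell, and under TPM scaling 2 rose and 1 fell. GFM2, a recycling factor, averaged 17.7 ± 0.516 FPKM in PAL and 22.0 ± 0.629 FPKM in control (-0.30, adjusted p = 0.00172, passed in all 17 alternatives), and GFM1, an elongation factor, fell by 0.16 (adjusted p = 0.0207). The GFM1 call was lost without PAL replicate 1 or 3 or control replicate 1 or 2 (adjusted p = 0.0614 to 0.0696), and under TPM (0.0849), plain totals (0.126) and quantile scaling (0.0502).

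Of 18 genes of tRNA maturation, repair and export 16 were tested, and 3 rose and 1 fell (11.4% and 14.5% of all tested genes). TSEN54, a subunit of the tRNA splicing endonuclease, rose by 0.27 (adjusted p = 0.0191) and TRMU, which thiolates mitochondrial tRNAs, by 0.25 (adjusted p = 0.0136). The TSEN54 call was lost without PAL replicate 2 or 3 or control replicate 1 or 2 (adjusted p = 0.054 to 0.0626). NSUN2, a tRNA cytosine methyltransferase, averaged 57.8 ± 1.66 FPKM in PAL and 64.2 ± 0.496 FPKM in control (-0.15, adjusted p = 0.0098, and 0.101 under TPM). XPOT, the tRNA exporter, stood at -0.06 (adjusted p = 0.154), and at 0.00606 under TPM scaling. Under TPM 7 of the 16 rose and 0 fell (22.1% and 9.51% of all tested genes). Of 5 tested genes for editing, deacylation and selenocysteine, 1 fell and 0 rose: PTRH2, a peptidyl-tRNA hydrolase, averaged 10.7 ± 0.678 FPKM in PAL and 14.2 ± 1.06 FPKM in control (-0.38, adjusted p = 0.00711).

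The list for uncharged tRNA sensing and the ATF4 axis, which also holds kinases other than GCN2, included larger changes than those of the synthetases. Of 30 genes 28 were tested, 3 rose and 15 fell (11.4% and 14.5% of all tested genes), with a median log2 change of -0.18. Under TPM scaling 4 rose and 12 fell (22.1% and 9.51% of all tested genes). CHAC1, a glutathione-degrading enzyme, had 3.14, 3.17 and 3.19 FPKM in PAL, against 18.5, 17.8 and 19.6 FPKM in control. It fell by 2.24 on the log2 scale (adjusted p = 1.21e-06), and PPP1R15A, the phosphatase subunit GADD34, fell by 2.22 (adjusted p = 1.30e-05). DDIT3 averaged 10.5 ± 0.416 FPKM in PAL and 25.6 ± 3.18 FPKM in control (-1.20, adjusted p = 1.42e-04). All 3 passed in the 17 alternatives. Picked after their values were known, the kinase gene EIF2AK3 fell by 0.85 (adjusted p = 0.00144), while PSAT1 (-0.02), PHGDH (0.02) and TRIB3 (-0.14) did not pass. The amino acid transporter genes SLC7A5 (adjusted p = 0.0103) and SLC7A1 (adjusted p = 0.0193) each rose by 0.22, SLC7A1 not past the threshold without PAL replicate 1 or 2 or control replicate 1 or 2 (adjusted p = 0.0577 to 0.0689).

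Within the axis, the transcripts of the sensor GCN2 and of ATF4 itself differed by less than CHAC1, PPP1R15A and DDIT3. EIF2AK4, the sensor GCN2, had 11.9, 11.4 and 12.0 FPKM in PAL, against 13.3, 13.3 and 13.1 FPKM in control, a log2 change of -0.16 (adjusted p = 0.0177), and -0.09 under TPM scaling (adjusted p = 0.117). It did not pass either without PAL replicate 2 or control replicate 1 or 2 (adjusted p = 0.054 to 0.0605). ATF4 had 136, 137 and 124 FPKM in PAL, against 143, 138 and 151 FPKM in control. The ATF4 groups did not overlap, but the change of -0.12 (adjusted p = 0.127) did not pass; ATF4 is known to be set largely by translation, which RNA does not show. ASNS, asparagine synthetase, was below the filter at 0.25 ± 0.0424 FPKM in PAL and 0.446 ± 0.0806 FPKM in control. The control libraries held the higher level of stress transcripts beyond this axis too. Picked after their values were known, the stress-inducible chaperone genes HSPA6 and HSPA1A averaged 40.4 ± 28.6 and 65.3 ± 26.1 FPKM in PAL, against 1882 ± 171 and 1386 ± 25.4 FPKM in control. Every direction given here is relative to those libraries, and a change in PAL cells and a state of the control cells cannot be told apart. Whether the labels of the groups were exchanged was not tested, and an exchange would turn every direction given here.

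**Figure D5:**
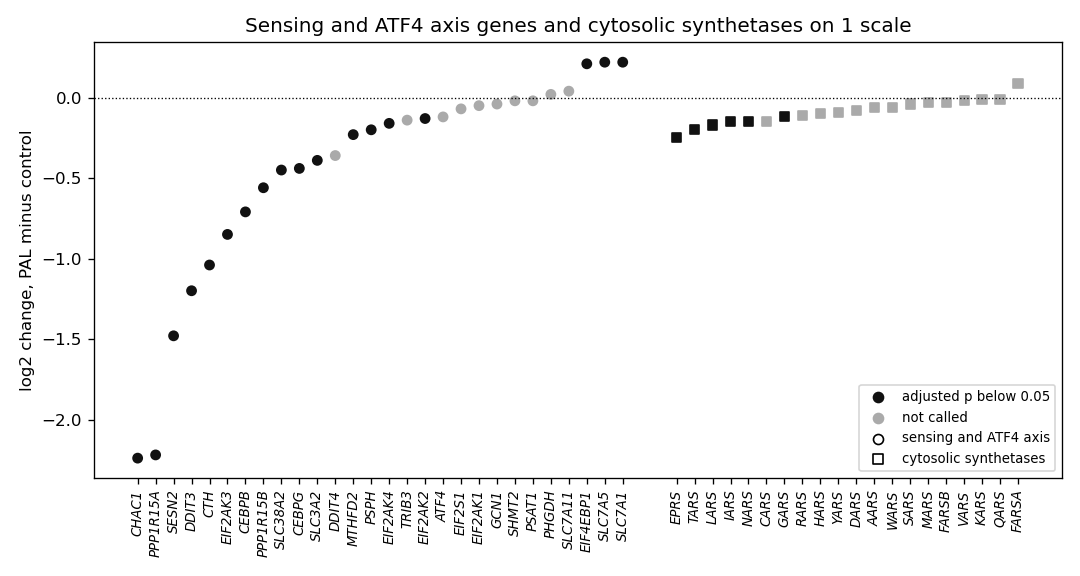
Log2 change, PAL minus control, of the tested genes of the sensing and ATF4 axis (circles, left) and of the 20 cytosolic synthetases (squares, right), black where the adjusted p was below 0.05. The axis runs between -2.24 for CHAC1 and 0.22 for SLC7A5, the synthetases between -0.25 and 0.09.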

How the data were processed

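Poly-A enriched RNA of 3 PAL and 3 control A375 libraries was measured, per the labels' protocols, and hg38 is the build in the submitters' processing notes. The deposited values are FPKM per gene and library, computed by the authors. No source used here gives the read aligner, the counter or any use of strand. Multiplied by gene length, 100% of the values came out as whole reads of their library within 0.01, so reads were recovered. The library size behind the FPKM was 1.04 to 1.05 of the assigned reads in PAL and 0.980 to 0.984 in control.

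The members and gene lists were chosen with earlier results of these data known. Differences were tested on log2(FPKM + 1) with limma 3.58.1 (R 4.3.3) with a variance trend and 4 residual degrees of freedom. Members were analysed whole; of the related lists, up to 2 rises and 2 falls that passed (or the 2 highest where none did), fixed sensors, scaffold genes and overlapping neighbours are named, and any other gene is marked. Melanoma, keratinocyte, fibroblast, immune and endothelial markers were listed: 6 of 10, 2 of 5, 1 of 5, 1 of 5 and 0 of 3 averaged at least 1 FPKM. The summed keratinocyte markers were 30.8 to 33.4 FPKM in PAL and 31.5 to 36.4 FPKM in control, and those of fibroblasts, immune and endothelial cells reached at most 5.15 FPKM in any library. The fit was checked on simulated data. Alternatives were pseudocounts of 0.5 and 0.1, other filters and scalings, no variance trend, a replicate block, voom on recovered reads and leaving out libraries. Same-numbered PAL and control libraries did not deviate together (correlations -0.0239, 0.0273 and -0.0447 over 12258 genes). With 3 libraries a group such values cannot show whether the numbers pair them, and the labels do not say. Promoter windows are from RefSeq. Python 3.11.15 with pandas 2.3.3, numpy 2.4.6, scipy 1.17.1 and matplotlib 3.10.9 was used.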

Additional observations from a re-analysis of the deposited data

How the results depend on the processing

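EPRS and TARS passed in all 17 alternatives and PARS2 in the 16 that tested it. Cytosolic falls numbered 2 under TPM, plain read totals and quantile normalization, 3 without the variance trend, 10 with voom on recovered reads, and 3 to 6 when single libraries were left out, against 6 as reported; 1 cytosolic gene, FARSA, rose under TPM, plain totals, quantile and voom, and 0 with any single library out. Mitochondrial falls were 0 without a filter, under TPM, plain totals and quantile, without the variance trend and with the replicate block, and 0 to 1 with single libraries out. Mitochondrial rises were 0 at a mean of 5 FPKM, a filter that left 13 of the 16 genes tested and PARS2 untested. They were 6 under TPM, 8 under plain totals, 4 under quantile, 2 under voom and 1 with any single library out. Under TPM, plain totals, quantile and voom, 22.1%, 25.3%, 16.9% and 13.7% of all tested genes rose. In the same order 9.51%, 9.22%, 11.6% and 18.1% of all tested genes fell. The cytosolic median was -0.02, -0.00545 and -0.03 under TPM, plain totals and quantile (single libraries out: -0.10 to -0.07), and the mitochondrial 0.11, 0.13 and 0.09 (0.03 to 0.06). Genes differing among all tested numbered 2103 without a filter and 1839 to 2714 with single libraries out. Pairs with every PAL library below every control library numbered 10 to 14 with libraries left out. Leaving out a library cannot undo such a separation, so this count could not go below 10 and its range is no test.

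Directions turned for values near 0, under TPM, plain totals and quantile scaling in that order. They were 0.00679, 0.02 and 0.02 for AARS, 0.02, 0.03 and 0.00491 for AIMP1, 0.05, 0.07 and 0.03 for EARS2, 0.04, 0.06 and 0.02 for FARSB, 0.06, 0.07 and 0.06 for KARS, and 0.04, 0.05 and 0.00851 for LARS2. MARS gave 0.04, 0.05 and 0.00378, NARS2 0.06, 0.08 and 0.03, QARS 0.06, 0.07 and 0.02, SARS 0.03, 0.05 and 0.000586, and VARS 0.05, 0.07 and 0.01. Under TPM and plain totals alone, RARS2 gave 0.000124 and 0.01, WARS 0.01 and 0.03, WARS2 0.02 and 0.03, and XPOT 0.00606 and 0.02. With single libraries out, the range crossed 0 for EARS2 (-0.05 to 0.02), FARSB (-0.05 to 0.00823), NARS2 (-0.06 to 0.05), QARS (-0.04 to 0.02), VARS (-0.04 to 0.0041), and the pairs FARSB to FARS2 (-0.03 to 0.16) and WARS to WARS2 (-0.05 to 0.04). The cause was not tested.

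With the replicate number as a block, EPRS, GARS, NARS and TARS fell and PARS2 rose, while IARS, LARS and IARS2 did not pass (adjusted p = 0.08, 0.111 and 0.0719), and 2131 of all tested genes differed. The labels do not say whether the numbers pair the libraries, so which of the 2 fits applies was not settled. A planned comparison of the proteins was not run. With 3 libraries a group, Dixon's outlier check was not made, and PARS2, SARS2 and FARS2, at 52 to 222 reads per library, are the members most limited by depth.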
